A study of Caenorhabditis elegans with 6 samples.

Results

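The control worms of this series were described on their own: 2 libraries out of 6, the replicates labelled wild type in the *hlh-30* study of amyloid-beta (Aβ) *Caenorhabditis elegans*. Both were chosen by their labels, and levels were described for all 22588 genes of the deposited overexpression table, in which the control libraries have a column each. The control worms carry the labelled strain GMC101, in which the *unc-54* promoter drives human Aβ peptide in body wall muscle and the *mtl-2* promoter drives green fluorescent protein (GFP) in the intestine. The deposited design text names CL4176 as the Aβ strain instead. Whole worms were grown at 20°C to young adults, then kept at 25°C for 24 h to induce the peptide, and were labelled as adult day 1. The other 4 libraries, from worms that overexpress or lack *hlh-30*, carry the same Aβ background, and no worms without Aβ were sequenced. The levels therefore describe Aβ worms after the temperature shift, and what either contributed to them was not tested. RNA of the whole animal was pooled from all tissues, so that fewer cells of a type and less RNA per cell cannot be told apart.

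A hermaphrodite of this age makes oocytes from a germline that earlier produced a fixed stock of sperm, and it loads those oocytes with yolk made in the intestine. Yolk proteins are vitellogenins, large lipoproteins that are secreted into the body cavity and taken up by the RME-2 receptor of the oocyte. The adult body is held by striated body wall muscle and by a cuticle of many collagens, most of which are made in waves at the moults. HLH-30, the worm ortholog of TFEB, is a basic helix-loop-helix transcription factor of autophagy and lysosome genes, which makes the level of these genes in the control worms the starting point of the study.

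The libraries held 18097960 reads on genes in replicate 1 and 18980224 in replicate 2. The 10 genes with most reads took 6.68% and 7.01% of them. Levels are given as TPM, the reads of a gene divided by its length and scaled so that all genes of a library sum to 1000000. In a gene of 1000 bases, 1 read was worth 0.0741 TPM in replicate 1 and 0.0708 TPM in replicate 2, so that levels near these values rest on single reads. Across the 14733 genes at 1 TPM or more in both libraries, log2 levels had a Pearson r of 0.988 between the libraries, a description across genes that are not independent replicates. The median absolute log2 ratio of the libraries was 0.13 over these genes, and 343 of them differed by over 2-fold. The libraries differed by more than counting noise: the median chi-square value of a gene was 1.37, against 0.455 for counting noise alone. They were counted as separate samples, as labelled. The labels do not say whether they came from separate cultures, and this spread does not show it, so it may be technical.

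Of all genes in the table, 65.2% reached 1 TPM in both libraries. A further 1867 genes reached it in only 1 of the libraries, and 1190 had no read in either. The level of 10 TPM was reached in both libraries by 8459 genes, 100 TPM by 1755 and 1000 TPM by 132. Expression was spread over many genes: the 10 highest held 5.23% of all TPM, the 100 highest held 28.3%, and 526 genes were needed to hold 50% of it. The spread between the libraries narrowed with level. The median absolute log2 ratio was 0.27 for the 6008 genes between 1 and 10 TPM, where counting alone gave 0.19, and 0.04 for the 135 genes with a mean of 1000 TPM or more, where counting alone gave 0.01.

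The highest gene of the control worms was *eef-1A.1* (F31E3.5, chromosome III, 6970026 to 6971719), which encodes the elongation factor that brings aminoacyl-tRNA to the ribosome. It stood at 9597 TPM in replicate 1 and 9731 TPM in replicate 2. The next was *ant-1.1* (T27E9.1, chromosome III, 13463163 to 13464657), the mitochondrial carrier that exchanges ADP for ATP, at 6744 and 7411 TPM. The yolk gene *vit-2* was the third, at 5296 and 5997 TPM. The values of these 3 genes did not overlap with each other. Behind them came *rla-0*, the stalk protein of the large ribosomal subunit, at 4802 and 4973 TPM, then *rpl-10* at 4538 and 4478 TPM. The sixth, *sip-1*, a small heat shock protein known from oocytes and embryos, had 4493 and 4234 TPM, which overlapped with *rpl-10* above it and with *rps-8* below it at 4187 and 4307 TPM. Among the 20 highest genes, 12 lay in the ribosomal protein list. The others included the mitochondrial gene *COX3*, a subunit of cytochrome c oxidase, at 3654 and 3829 TPM, and *fat-2*, a desaturase of polyunsaturated fatty acid synthesis, at 3407 and 3685 TPM. *Y37E3.8*, at 4043 and 3917 TPM, and *Y82E9BR.3*, at 3709 and 3683 TPM, have only sequence names in the table.

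Of the 135 genes with a mean of 1000 TPM or more, 73 lay in the ribosomal protein list, 5 in the mitochondrial genome and 44 in none of the lists compared here. The lists were drawn by gene name, so a ribosomal protein gene under another name would be counted among the 44. Several of these 44 encode proteins of fat metabolism or translation, and those given here were named after their values were seen. *fat-1* stood at 1335 and 1461 TPM and *fat-3* at 968 and 1129 TPM, both desaturases that act with *fat-2*. The fatty acid and retinol binding proteins *far-2* and *far-1* stood at 2135 and 2177 TPM and at 1296 and 1362 TPM. The elongation factor *eef-2* had 3122 and 3171 TPM, and *rack-1*, a scaffold on the small ribosomal subunit, had 2885 and 2929 TPM. Counted by reads without regard to length, *vit-2* came first, with 353464 reads in replicate 1 and 419005 in replicate 2, and *unc-54* was the fifth, with 81372 and 81224 reads.

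**Figure D1:**
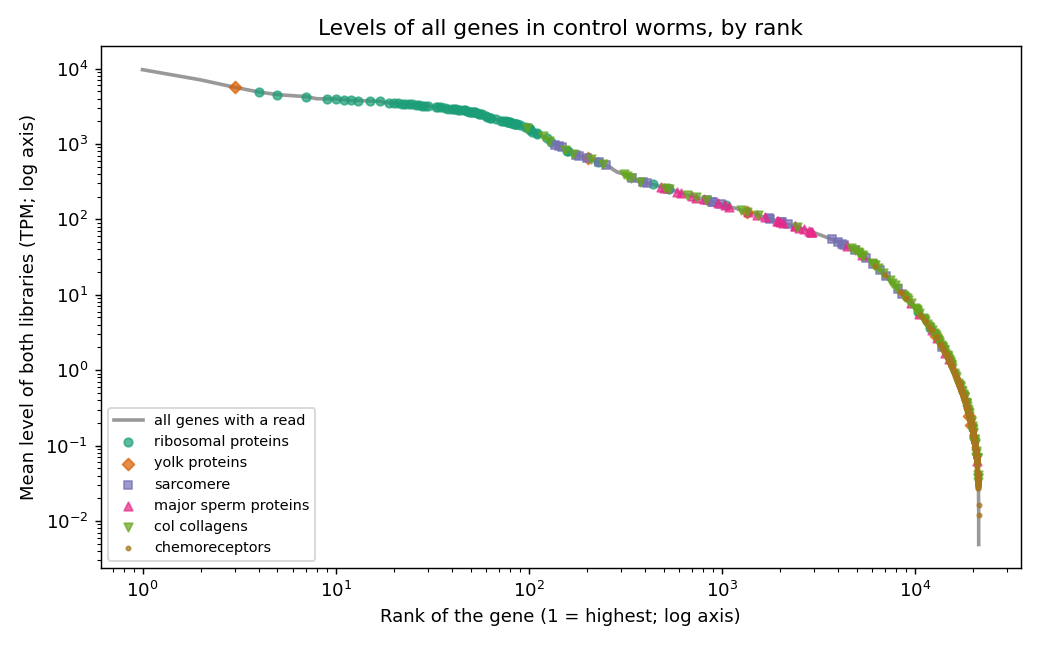
Mean level of each gene in the control libraries (TPM, log axis) against its rank (log axis). The grey line is all genes with a read, and coloured points mark the members of 6 lists. Ribosomal protein genes fill most of the top 100 ranks, *vit-2* is at rank 3, and chemoreceptor genes lie at the low end, with a median of 0.144 TPM.

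The 81 genes of the cytosolic ribosomal protein list took 19.7% ± 0.0121 of all TPM (SD, n = 2) and 9.92% and 9.94% of the reads in replicates 1 and 2. The list was drawn by gene name and includes *rpl-41.2*, which is annotated as a pseudogene. A ribosomal protein gene under another name was not counted, so 19.7% is the share of the list and may fall short of all such genes. All 81 reached 1 TPM in both libraries, 66 ranked among the 100 highest genes, and their median was 2580 TPM. Levels within the family were close for most members, with quartiles at 1820 and 3205 TPM. The lowest members, named after their values were seen, were *rpl-42*, with 4.29 and 3.0 TPM from 30 and 22 reads, and *rpl-37*, with 6.28 and 5.60 TPM from 30 and 28 reads. The table does not show how reads shared by similar genes were counted, so a low member of this family is uncertain. Of the ribosomal protein genes, 2 lay on the X chromosome.

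The mitochondrial genome gave 1.38% ± 0.0503 of all TPM through its 12 protein-coding genes. *COX3* was the highest, followed by *ATP6*, a subunit of ATP synthase, at 2168 and 2199 TPM, and *COX1* at 2084 and 2241 TPM. The NADH dehydrogenase subunits, named after their values were seen, were lower: *ND1* stood at 663 and 704 TPM and *ND4* at 385 and 419 TPM. *ND4L* was the lowest, with 1.26 and 0.301 TPM from 4 reads and 1 read. All but 1 of the 11 genes at 1 TPM or more were higher in replicate 2, the exception being *ND6* at 44.3 and 41 TPM. Names of these genes follow RefSeq entries at the same positions of WBcel235, and 10 of the 12 overlap another annotated gene.

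The 6 vitellogenin genes held 0.643% ± 0.0503 of all TPM. By reads, their share was 2.24% in replicate 1 (95% Wilson interval 2.24 to 2.25) and 2.50% in replicate 2 (2.50 to 2.51), since these messages are long, with a median of 4915 bases. These intervals cover counting error only. The family was very uneven, and 99.9% of its TPM came from 3 genes. *vit-2* (C42D8.2, chromosome X, 5101032 to 5106173) held most of it. *vit-6* (K07H8.6, chromosome IV, 8261145 to 8266463), the only member off the X chromosome, stood at 639 and 660 TPM, at rank 203. *vit-5* (C04F6.1, chromosome X, 3403471 to 3408605) stood at 132.0 and 121.7 TPM. The remaining members were near the low end of the table. *vit-1* had 2.90 and 2.74 TPM from 204 and 202 reads. *vit-3* had 0.364 and 0.131 TPM from 24 and 9 reads, and *vit-4* had 0.198 and 0.174 TPM from 13 and 12 reads. *vit-1* is a near copy of *vit-2*, and *vit-3* and *vit-4* are near copies of *vit-5*. How reads that match several copies were treated is not stated, so the split between copies is uncertain, while the sum over the family is less so.

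**Figure D2:**
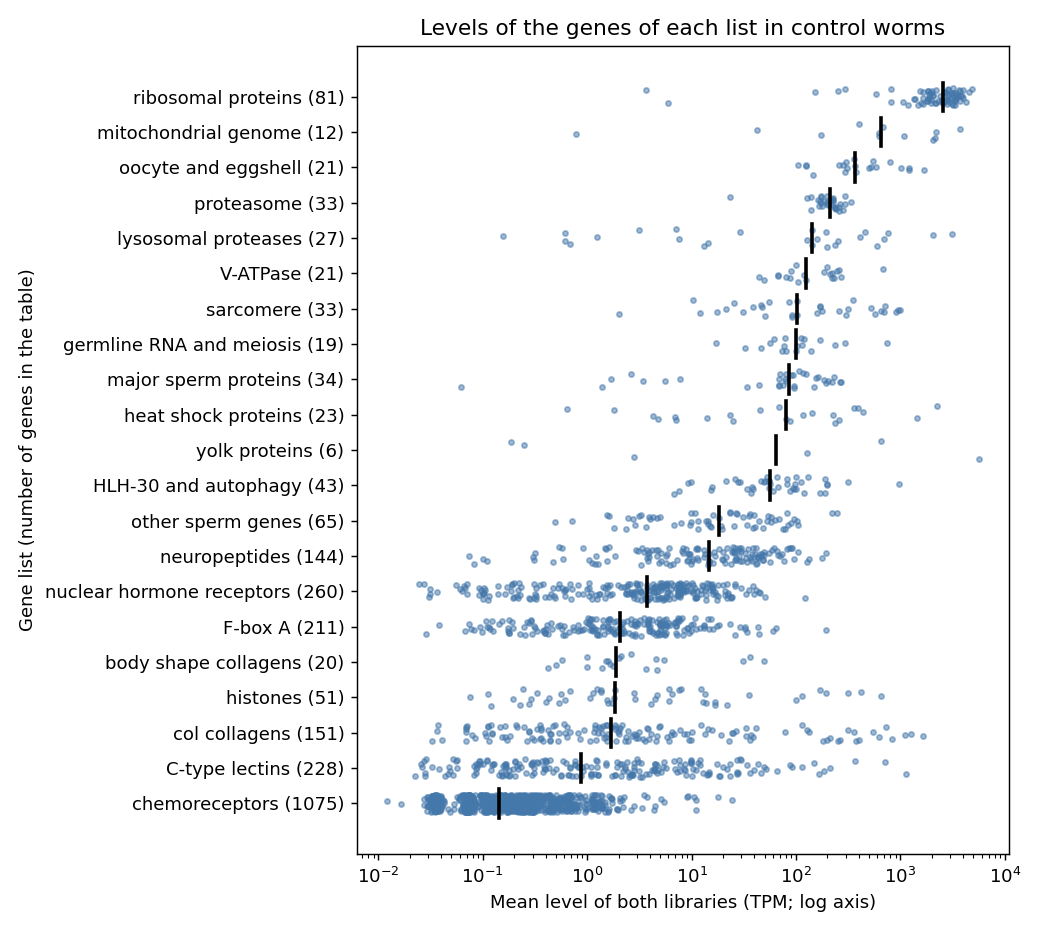
Mean level of the genes of 21 lists in the control libraries (TPM, log axis), with the number of genes of each list in the table. Each point is a gene with a read, and the black bar is the median over all genes of the list. Ribosomal protein genes have the highest median at 2580 TPM, the vitellogenins span from 0.186 to 5647 TPM, and chemoreceptors have the lowest median.

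Oocyte genes were high as a group. The 21 genes of the oocyte and eggshell list held 1.11% ± 0.0114 of all TPM, each stood above 100 TPM as a mean, and their median was 371 TPM. The highest encode proteins of the eggshell: *cpg-2*, a chondroitin proteoglycan, at 1743 and 1651 TPM, *perm-2* at 1144 and 1284 TPM, *perm-4* at 1187 and 1234 TPM and *cpg-1* at 1039 and 982 TPM. *pos-1*, an RNA-binding protein of the early embryo that is stored as maternal message, had 782 and 795 TPM. The yolk receptor gene *rme-2* stood at 378 and 367 TPM. The maturation factors *oma-1* and *oma-2* stood at 285 and 284 TPM and at 296 and 298 TPM.

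The 19 genes of germline RNA regulation and meiosis held 0.266% ± 0.00806 of all TPM, with a median of 99 TPM. *gld-1*, a translational repressor of the meiotic germline, led them with 757 and 741 TPM. The P granule genes *pgl-1* and *glh-1* followed at 304 and 278 TPM and at 245 and 230 TPM. *deps-1*, another P granule gene, stood at 176 and 165 TPM and *him-3*, of the meiotic chromosome axis, at 142 and 134 TPM. All 19 reached 1 TPM in both libraries and none lay on the X chromosome.

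Messages of sperm were present at lower levels. The 34 genes of the major sperm protein (*msp*), the cytoskeletal protein that also signals to oocytes, held 0.345% ± 0.0371 of all TPM and 33 of them reached 1 TPM in both libraries. These messages are short, with a median of 455 bases, and the share depended on how length was treated: it was 0.124% and 0.106% of the reads, and 0.531% of all TPM with 250 bases taken off each length. Their median was 85.2 TPM. *msp-31* stood at 293 and 252 TPM, *msp-57* at 276 and 248 TPM and *msp-40* at 248 and 218 TPM. These genes are near copies of each other, so the split between them is uncertain. The 3 highest of the 34 held 22.3% of the family, against 99.9% for the 3 highest of 6 vitellogenins, a much smaller family. The 65 other sperm genes held 0.228% ± 0.0289 of all TPM and 0.153% and 0.128% of the reads, with a median of 18.5 TPM. *spch-3* and *spch-1*, which encode basic chromatin proteins of sperm, led with 278 and 219 TPM and with 246 and 199 TPM. *spe-18*, needed for sperm formation, stood at 114 and 93.2 TPM. The *msp* genes lay on chromosomes II and IV, 15 and 19 genes, and none of the 99 sperm genes of either list lay on the X chromosome.

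Sarcomere genes held 0.872% ± 0.00149 of all TPM and 1.47% and 1.45% of the reads through 33 genes, all at 1 TPM or more in both libraries. *mlc-2*, a myosin light chain, stood at 964 and 1001 TPM. *unc-54* (F11C3.3, chromosome I, 14855930 to 14863482), the major myosin heavy chain of body wall muscle, stood at 963 and 918 TPM. *cpn-3*, a calponin-like protein, had 864 and 941 TPM and *unc-15*, paramyosin, had 698 and 731 TPM. The Aβ transgene uses the promoter and the 3′ end of *unc-54*, so reads from the transgene's end could be counted in *unc-54*, and their part in its level was not tested. *myo-3*, the minor body wall myosin, was lower at 95.6 and 108 TPM. The pharyngeal myosins *myo-2* and *myo-1* had 88.4 and 95.5 TPM and 49 and 51.8 TPM. The giant proteins of the sarcomere had the lowest levels per length: *unc-22*, twitchin, stood at 17.8 and 17.3 TPM and *ttn-1*, titin, at 2.08 and 1.93 TPM, both named after their values were seen. The actin genes *act-1* to *act-4* are near copies of each other, and the highest of them, *act-2*, stood at 736 and 668 TPM.

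Of 151 *col* collagen genes, 85 reached 1 TPM in both libraries. They held 1.04% ± 0.0446 of all TPM, of which the 3 highest took 38.8%. *col-140* stood at 1714 and 1564 TPM, *col-119* at 1270 and 1273 TPM and *col-20* at 1140 and 1072 TPM. The adult cuticle collagen *col-19* stood at 376 and 337 TPM, at rank 338. The median of the family was 1.70 TPM, and 36 members had a mean of 10 TPM or more. The 20 collagens named for body shape (*dpy*, *sqt*, *rol*, *bli* and *lon*), which are mostly made at larval moults, held 0.0152% ± 0.000425 of all TPM, and none had a mean of 100 TPM. *dpy-17* was the highest at 48.1 and 49.9 TPM. The next was *dpy-14*, at 26.1 and 45.9 TPM, and *sqt-3* had 27.8 and 34 TPM. The libraries differed more in this group than in any other of the 21 lists plotted. Its 13 genes at 1 TPM or more had a median absolute log2 ratio of 0.78, against 0.13 over all such genes. The group is low, with a median of 1.90 TPM, and all genes between 1 and 10 TPM had a ratio of 0.27. *dpy-4* had 7.92 TPM in replicate 1 and 2.97 TPM in replicate 2 from 107 and 42 reads. *dpy-13* had 6.85 and 2.37 TPM from 91 and 33 reads.

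Lysosome genes held 1.51% ± 0.0704 of all TPM through 93 genes, of which 81 reached 1 TPM in both libraries. Lysosomes digest what autophagy and endocytosis bring to them, with proteases that work in the acid kept by the vacuolar proton pump (V-ATPase). The proteases dominated the list: 27 genes held 0.959% ± 0.0534 of all TPM. *asp-6* (F21F8.7, chromosome V, 8267546 to 8268937), an aspartyl protease, stood at 2936 and 3265 TPM, at rank 32. *asp-1*, an intestinal aspartyl protease, stood at 1936 and 2145 TPM. *cpl-1*, cathepsin L, had 751 and 775 TPM and *asp-3*, a cathepsin D-like protease, had 654 and 730 TPM. The cathepsin B genes *cpr-4* and *cpr-1*, named after their values were seen, stood at 459 and 465 TPM and at 383 and 428 TPM. *asp-18* and the lipase gene *lipl-8* had no read in either library. A count of 0 allows up to 0.189 and 0.180 TPM for *asp-18*, and up to 0.184 and 0.176 TPM for *lipl-8*, at 3 reads in each library. Of the protease genes, 21 of 27 lay on chromosome V.

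The 21 V-ATPase genes were all present, between 44.3 and 687 TPM as means, with a median of 125 TPM. They held 0.366% ± 0.00734 of all TPM. *vha-2*, a proteolipid of the membrane ring, was the highest at 685 and 690 TPM. The next were lower: *vha-1* stood at 266 and 272 TPM, *vha-9* at 255 and 265 TPM and *vha-8* at 241 and 252 TPM. The members below were named after their values were seen. *vha-3*, a near copy of *vha-2*, had 114 and 124 TPM, and the split between them is uncertain. The a subunit isoforms, which direct the pump to membranes, were lower. *unc-32* had 89.4 and 90.9 TPM, *vha-6*, of the intestine, 64.4 and 69.3 TPM, *vha-7* 49.8 and 49.8 TPM and *vha-5*, of the excretory canal and epidermis, 43.0 and 45.6 TPM.

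*hlh-30* itself (W02C12.3, chromosome IV, 4015615 to 4019039 in the table) stood at 94.3 and 100 TPM from 2933 and 3271 reads, at rank 1893. In a list added after the values were seen, it was the highest of 25 genes named *hlh*, and 11 of them reached 1 TPM in both libraries. *hlh-11*, a transcription factor of fat metabolism, was the next at 61.2 and 64.6 TPM. That list goes by name and is not the whole helix-loop-helix family. Outside it, *mxl-3* and *mxl-2* stood above *hlh-30*, at 165 and 218 TPM and at 134 and 127 TPM. *mxl-1* overlapped with *hlh-30* at 99.8 and 99.3 TPM, and *mml-1* was lower at 15.5 and 15.6 TPM. The *hlh-30* and autophagy list held 43 genes, all at 1 TPM or more, with a median of 56.1 TPM. *lgg-1*, the ubiquitin-like protein of the autophagosome membrane, led by a wide margin at 939 and 1009 TPM. Its relative *lgg-2* stood at 296 and 330 TPM. *sqst-1*, a receptor for autophagy cargo, stood at 83.3 and 93.2 TPM.

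Genes of autophagosome formation were lower than *lgg-1*. The kinase gene *unc-51* had 36.6 and 36.8 TPM, *bec-1*, of the lipid kinase complex, 51.9 and 58.8 TPM and *atg-9*, a membrane protein, 58.5 and 60.5 TPM. *atg-18*, a lipid-binding protein, stood higher at 168 and 171 TPM. For fusion with the lysosome, *rab-7* stood at 201 and 199 TPM and the syntaxin gene *syx-17* at 40.1 and 37.1 TPM. *epg-5*, a tether in the same step, was among the lowest at 7.15 and 7.86 TPM. Genes of the TOR pathway, which holds HLH-30 in the cytoplasm, were uneven. *let-363*, the TOR kinase, stood at 25.9 and 26.4 TPM and *daf-15*, its partner Raptor, at 38.3 and 38.1 TPM. *ragc-1* and *raga-1*, the Rag GTPases, had 196 and 204 TPM and 98.1 and 93.8 TPM. *rsks-1*, the S6 kinase, had 192 and 189 TPM. *mxl-3*, which represses lysosomal lipase genes in fed worms, differed most between the libraries in this group among those over 100 TPM, with 165 and 218 TPM.

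Heat shock protein genes spanned a wide range of levels after the 24 h at 25°C, with no worms kept at 20°C to set them against. The 23 genes had a median of 79.5 TPM with quartiles at 10.5 and 249 TPM, and 10 of them had a mean of 100 TPM or more. They held 0.620% of all TPM, of which the 3 highest took 66.1%. The list was drawn by gene name and leaves out the small heat shock gene *sip-1*. At 4493 and 4234 TPM, *sip-1* stood above every member of the list, so 0.620% is not the share of all heat shock genes. *daf-21*, HSP90, stood at 2212 and 2220 TPM and *hsp-1*, a constitutive HSP70, at 1460 and 1422 TPM. The endoplasmic reticulum chaperones *hsp-3* and *hsp-4* stood at 418 and 461 TPM and at 396 and 391 TPM, and the mitochondrial chaperone *hsp-6* at 370 and 345 TPM. *hsp-60*, another mitochondrial chaperone, was lower at 92.6 and 80.6 TPM, and the small heat shock gene *hsp-12.6* stood at 19.35 and 27.04 TPM. The heat-inducible *hsp-16.2* and *hsp-16.41*, small heat shock genes beside each other on chromosome V, had 259 and 262 TPM and 241 and 234 TPM. The inducible *hsp-70* had 224 and 229 TPM. The other *hsp-16* genes were far lower: *hsp-16.11* stood at 7.48 and 6.55 TPM, *hsp-16.49* at 7.04 and 6.89 TPM, *hsp-16.1* at 4.91 and 4.69 TPM and *hsp-16.48* at 3.26 and 5.25 TPM. These 4 lie within a duplication on chromosome V in which *hsp-16.1* matches *hsp-16.11* and *hsp-16.48* matches *hsp-16.49*, and their levels are uncertain for that reason. *F44E5.4* and *F44E5.5*, a similar pair of HSP70 genes, had 2.30 and 2.60 TPM and 3.05 and 3.60 TPM, with the same limit.

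Among other stress genes, *gcs-1*, which makes glutathione, stood at 79.0 and 82.5 TPM. The metallothionein genes *mtl-1* and *mtl-2* had 47.8 and 42.9 TPM and 32.9 and 27.9 TPM. The promoter of *mtl-2* also drives the GFP marker of the strain, whose messages were not analysed here. *sod-3*, a mitochondrial superoxide dismutase, had 10.9 and 10.5 TPM and *gst-4*, a glutathione transferase, 9.41 and 8.36 TPM. The 33 proteasome genes held 0.687% ± 0.0211 of all TPM with quartiles at 174 and 237 TPM. *pbs-1*, a subunit of the core, was the highest at 357 and 313 TPM. The lowest, named after its value was seen, was *rpn-6.2* at 21.3 and 24.9 TPM.

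The large families of sensing and defence differed in level, and their shares at 1 TPM or more in both libraries are read beside the 65.2% of all genes in the table. Chemoreceptor and C-type lectin genes stood below that share, neuropeptide genes above it, and nuclear hormone receptor and F-box A genes near it. The 65.2% covers genes of every type. It and the family shares count only genes in the table, which does not show how its genes were chosen. WBcel235 names 1309 chemoreceptor, 240 C-type lectin and 269 nuclear hormone receptor genes, more than the table holds. For neuropeptide and F-box A genes, it names fewer than were counted here. Of 19085 protein-coding genes, 13909 reached 1 TPM in both libraries. That share is larger, and nuclear hormone receptor and F-box A genes stood below it. Of 1075 chemoreceptor genes, 52 or 4.84% reached 1 TPM in both libraries and 5 had a mean of 10 TPM or more, led by *sri-40* at 26 and 22.7 TPM. Such receptors are made in a few neurons each. The 1075 are not all protein-coding and include pseudogenes, such as *str-176* at 16.7 and 19.4 TPM. Of 144 neuropeptide genes, which include insulin-like genes, 84.7% reached 1 TPM in both libraries and 84 had a mean of 10 TPM or more, led by *flp-28* at 195 and 194 TPM and *nlp-40* at 179 and 180 TPM. Of 260 nuclear hormone receptor genes, 175 or 67.3% reached 1 TPM. Only *nhr-49*, a regulator of fat metabolism, had a mean over 100 TPM, with 118.6 and 127.6 TPM. Of 228 C-type lectin genes, 106 or 46.5% reached 1 TPM, and the 3 highest held 51.2% of the family. *clec-87* stood at 1143 and 1140 TPM, *clec-63* at 726 and 709 TPM and *clec-88* at 379 and 353 TPM. Of 211 F-box A genes, 131 or 62.1% reached 1 TPM, led by *fbxa-215* at 191 and 192 TPM. The 211 were matched by the table's own names as well as current ones, and WBcel235 names only 170 F-box A genes. Of 51 histone genes in the table, 31 reached it, led by *his-72*, a replacement histone H3, at 629 and 684 TPM. WBcel235 names 72 histone genes. The core histone genes of the clusters are near copies of each other, and their median of 1.86 TPM with the other histones is uncertain.

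Markers of cell types were read to check the label of whole worms. Every listed marker of intestine, body wall muscle, pharynx muscle, germline, oocyte, sperm, neurons, excretory cell and gonad sheath and spermatheca reached 1 TPM in both libraries. In the intestine, *elt-2*, its defining transcription factor, had 16.7 and 20.5 TPM and *ges-1*, an esterase, 28.2 and 28.8 TPM. *act-5*, the actin of the microvilli, had 56.6 and 63.7 TPM. In body wall muscle, *hlh-1*, the worm MyoD, had 5.95 and 7.58 TPM. Of the coelomocyte markers, *cup-4* had 8.44 and 6.75 TPM and *unc-122* had 1.65 and 0.670 TPM. Among neuronal markers, *snb-1*, synaptobrevin, had 389 and 380 TPM. *egl-21* and *egl-3*, which process neuropeptides, had 193 and 210 TPM and 175 and 185 TPM. *unc-119* had 21 and 22 TPM, and *unc-10*, of the synaptic active zone, had 2.90 and 2.18 TPM. Transcription factors stood below the structural genes of the same tissue in the intestine and both kinds of muscle. The sum of the marker list was 8011 and 8958 TPM for intestine, 1763 and 1765 TPM for body wall muscle and 194 and 156 TPM for sperm. It was 1484 and 1460 TPM for oocytes and 818 and 835 TPM for neurons. These sums are not shares of tissues: the lists hold 7, 4, 5, 4 and 8 genes in that order, and few genes carry each sum. In the intestine, 98.25% came from *vit-2*, *asp-1* and *vit-6*, with *vit-2* alone at 5296 and 5997 TPM.

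Markers of males, early embryos and larval moults were mostly low. The male neuron genes *pkd-2* and *lov-1* had 1 and 5 reads and 2 reads and 1 read, and *cwp-4* stood at 1.04 and 1.15 TPM. Of 7 early zygotic genes, 6 stayed below 1 TPM in at least 1 library: *end-1* had 1.34 and 0.319 TPM and *end-3* had 0.520 and 0.248 TPM. *med-1* had 0 reads in replicate 1, which allows up to 0.349 TPM, and 3 reads in replicate 2, and *tbx-38* had 1 read in replicate 1 and 0 reads in replicate 2, which allows up to 0.202 TPM. *pes-1* was the exception at 4.10 and 4.10 TPM. Of the moulting genes, *rol-6* had 1.91 and 0.852 TPM and *mlt-10* had 3.37 and 2.46 TPM. *nas-37*, a protease of the moult, was higher at 24.4 and 25.3 TPM, and *noah-1* had 9.56 and 12.6 TPM. The cuticle collagen genes *dpy-7* and *bli-1*, listed as hypodermis markers, had 1.15 and 0.858 TPM and 0.921 and 0.238 TPM, while *nhr-23*, a hypodermal regulator, had 38.3 and 39.3 TPM.

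**Figure D3:**
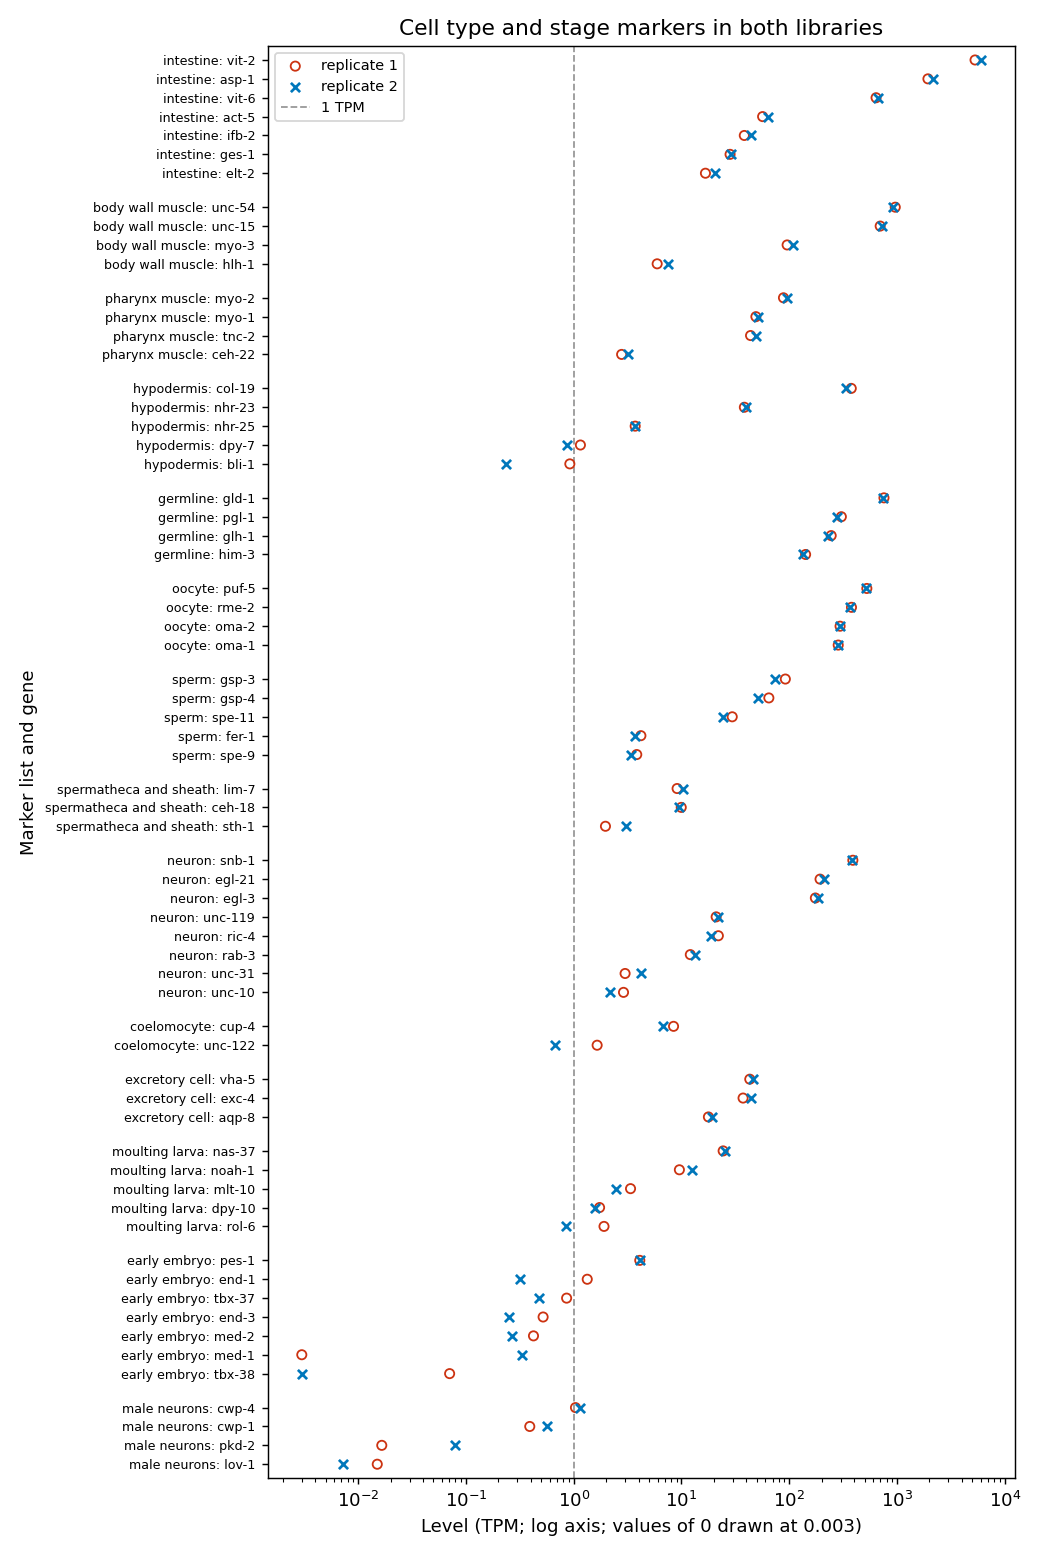
Levels of the marker genes (TPM, log axis) in replicate 1 (circles) and replicate 2 (crosses), grouped by cell type or stage, with values of 0 drawn at 0.003 and the dashed line at 1 TPM. Intestine, germline and oocyte markers stand far above it, and male neuron and early embryo markers lie near or below it, except *pes-1* at 4.10 TPM in both libraries.

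The chromosomes differed in level. Among genes at 1 TPM or more in both libraries, the median was 8.92 TPM over 1938 genes of the X chromosome and 18.5 TPM over 12781 genes of chromosomes I to V, a ratio of 0.483. Within each library, the ratio was 0.479 and 0.490. Among these genes, the X chromosome stood below each autosome, of which V had the lowest median at 10.8 TPM and III the highest at 31.2 TPM. The order of X and V depended on this threshold. Over all protein-coding genes, the median was 4.09 TPM on X and 2.62 TPM on V, and without the chemoreceptors it was 4.20 and 4.15 TPM, while X stayed below I to IV in both cases. The X chromosome held 14.3% of the genes in the table, and 6.31% and 6.67% of all TPM. Of its protein-coding genes, 3.85% had a mean of 100 TPM or more, against 10.1% on chromosomes I to V. The share of protein-coding genes at 1 TPM or more in both libraries was 69.0% on X and 73.5% on chromosomes I to V, and lowest on V at 59.3%, which also held 604 of the chemoreceptor genes counted as protein-coding. Without the chemoreceptors, that share was 69.6% on X and 67.8% on V.

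The families differed in where they lay. None of the 34 *msp*, 65 other sperm, 21 oocyte, 19 germline and 33 proteasome genes lay on X. By contrast, 5 of 6 vitellogenin genes, 11 of 33 sarcomere genes and 35 of 144 neuropeptide genes did, or 83.3%, 33.3% and 24.3%. No cause was tested for this difference. Each of the 6 was also split by position into 3 equal parts, and protein-coding genes of the middle part stood above those of both outer parts pooled. The medians were 29.2 and 14.4 TPM on I, 10.8 and 5.22 TPM on II, and 27.8 and 17.8 TPM on III. They were 10.9 and 6.85 TPM on IV, 4.49 and 1.91 TPM on V, and 4.69 and 3.82 TPM on X, where they were closest.

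**Figure D4:**
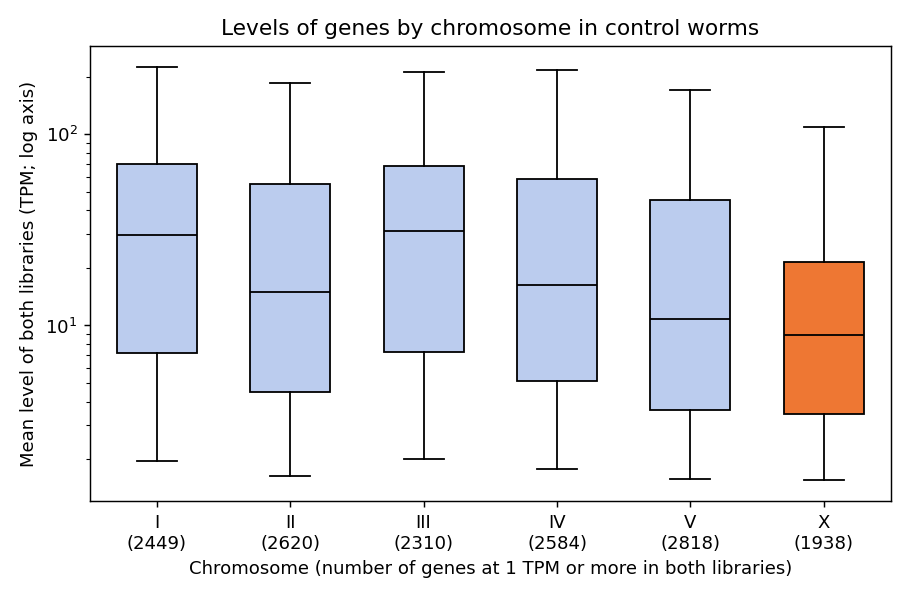
Mean levels (TPM, log axis) of the genes at 1 TPM or more in both control libraries, by chromosome, with the number of genes. Boxes span the quartiles with a line at the median, and whiskers reach the 5th and 95th percentiles. The X chromosome has the lowest median, 8.92 TPM, and chromosome III the highest, 31.2 TPM.

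The control libraries were not interchangeable in every family. Over all 14733 genes at 1 TPM or more, 51.9% were higher in replicate 1, with a median log2 ratio of replicate 1 over replicate 2 of 0.01. Among *msp* genes, 29 of 33 were higher in replicate 1, with a median of 0.22, and among other sperm genes 54 of 62, with a median of 0.25. Proteasome genes, 29 of 33 with a median of 0.06, and oocyte genes, 16 of 21 with a median of 0.04, leaned the same way by less. Lysosome genes leaned the other way: 63 of 81 were higher in replicate 2, with a median of -0.08, and so were all 7 intestine markers, with a median of -0.17. Sarcomere genes were even, 17 higher in replicate 1 and 16 in replicate 2. These are descriptions of 2 libraries, with no test, since genes of a family are not replicates. Ribosomal RNA was higher in replicate 1, as the sperm genes were, at 0.483% of reads against 0.374% in replicate 2. Its part in the differences between the libraries was not tested.

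**Figure D5:**
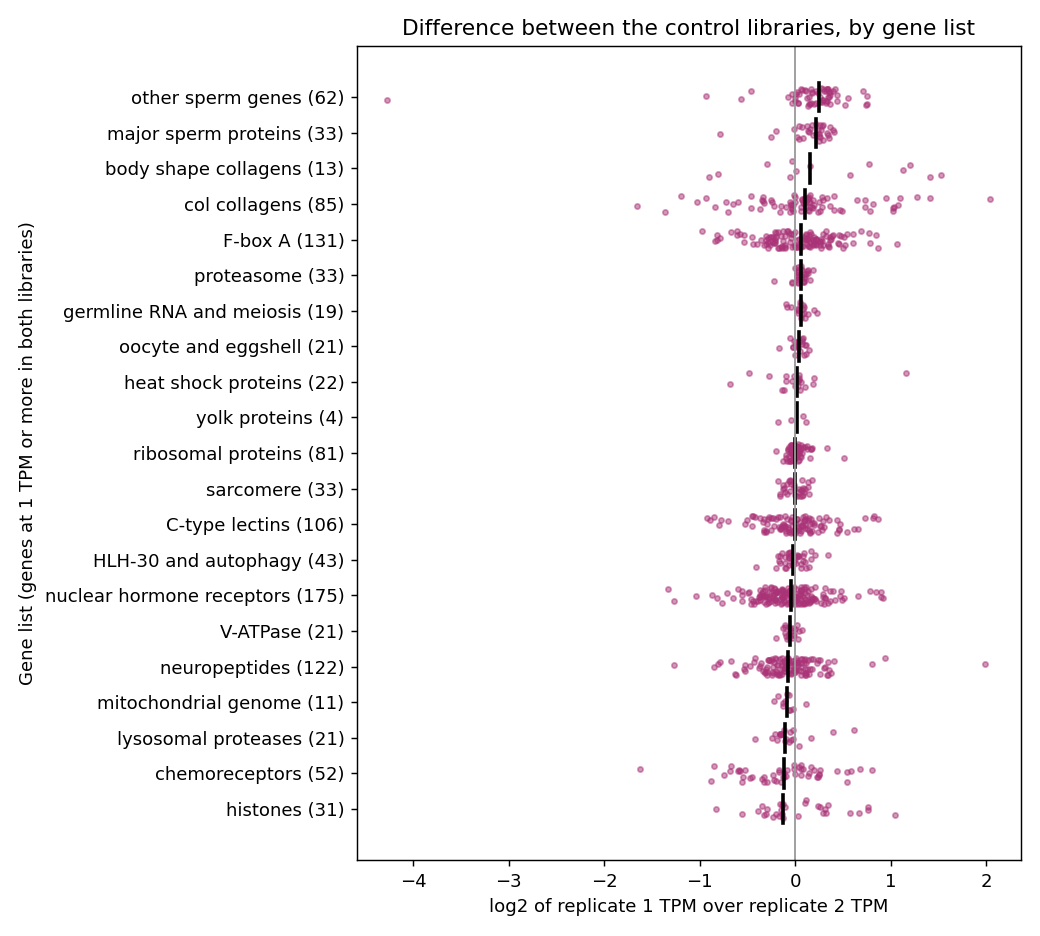
Log2 of the level in replicate 1 over that in replicate 2 for the genes of 21 lists at 1 TPM or more in both control libraries. Each point is a gene and the black bar is the median. Other sperm genes (median 0.25) and major sperm protein genes (0.22) lie to the right of 0, and lysosomal proteases (-0.10) to the left.

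Of single protein-coding genes at 10 TPM or more in both libraries, those that differed most were picked after it was seen that short RNAs filled the list set by the naming rule. *F53G12.8* had 24.4 and 11 TPM from 186 and 88 reads, and *C17F3.1* had 21.2 and 10.5 TPM. In the other direction, *tag-38* had 32.3 and 65.0 TPM from 774 and 1628 reads, and *dpy-14* followed among the genes named here. The rule itself named *21ur-15630*, *21ur-10392* and *21ur-11706* as higher in replicate 1, and *21ur-4428*, *21ur-10387* and *K04F10.8* as higher in replicate 2. The *21ur* loci are piRNA genes of 21 bases, where 1 read counted 3.53 and 3.37 TPM, and those named had between 3 and 14 reads in a library, so their TPM are not levels of the small RNA.

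In these libraries, genes that encode no protein held a small share. Protein-coding genes took 97.3% of all TPM in both libraries. The long non-coding RNA *tts-1* (F09E10.11), known from long-lived and dauer worms, was the highest of them, with 2763 and 2887 TPM from 26500 and 28989 reads, at rank 45. It and the genes given next were named after their values were seen. Pseudogenes took 0.633% and 0.666%, of which *rpl-41.2*, annotated as a pseudogene in the table, gave 1879 and 2152 TPM and *F07H5.5* gave 1234 and 1350 TPM. The ribosomal RNA gene *rrn-3.1* had more reads than *tts-1*, with 65622 and 53862 reads, and 1386 and 1087 TPM. Genes under 100 bases, 1143 in number, took 0.961% and 1.01% of all TPM from 0.0372% and 0.0385% of the reads. The published methods do not say whether ribosomal RNA was removed or messages were selected. The shares of RNA types therefore describe the libraries and not the RNA of the worms.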

How the data were processed

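Libraries were made from whole worms with the NEBNext Ultra RNA kit and read in pairs. The submitters' processing notes name HISAT2, featureCounts and DESeq2 without versions or roles; the genome build is not given in the sources used here, nor are strand or multiple matches in counting. The deposited signal of a gene is its reads divided by 1 size factor per library, as made by the authors. With a tolerance of 1e-06, 100% of the control values were whole multiples of the smallest value, which gave reads. The gene length used as divisor is another deposited column and has no unit of expression. The same control reads stood in both deposited tables for all 21498 shared genes. The 4 columns of the other groups were not used, nor the authors' mean, log2 fold change and p-value columns.

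TPM were computed in Python 3.11.15 with pandas 2.3.3 over all 22588 genes. Current symbols came from WBcel235 (Ensembl release 115), which matched 98.4% of the annotated genes, and 99.98% of these overlapped the position in the table. Shares are means of both libraries with their SD, and Wilson intervals and floors of 3 reads for a count of 0 used scipy 1.17.1. No test between groups was made. Steps were tested on counts simulated from the mean levels of these data, where list shares came back within 0.965%. The simulation had counting noise only, less than the spread of the libraries. It checks the arithmetic and not the accuracy of the levels. Genes were named by rule: the 20 highest, up to 5 highest of each list, all yolk, marker, stress and autophagy genes, and the 3 that differed most in each direction at 10 TPM or more. Members and lists were chosen with earlier results of these data known. Family sizes count genes in the table, and for some families they differ from the number that WBcel235 names. No sequences are shown.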

Additional observations from a re-analysis of the deposited data

How the results depend on the processing

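The alternatives changed how length entered, which genes were counted, or left out a library. Without division by length, the shares were 2.37% for yolk, 0.115% for major sperm protein, 0.141% for other sperm, 9.93% for ribosomal protein, 1.46% for sarcomere and 0.780% for *col* collagen genes, and the X to autosome ratio was 0.535. With 250 bases taken off each length, they were 0.455%, 0.531%, 0.308%, 24.4% and 0.929%, with 0.749% for sarcomere and 1.29% for lysosome genes and a ratio of 0.455. With the longest annotated transcript as length, major sperm protein genes took 0.392%, ribosomal protein 21.2% and sarcomere genes 0.990%, with a ratio of 0.454. Without genes that overlap another, *vit-2* and *vit-6* drop out and yolk genes took 0.0209%; major sperm protein took 0.459%, other sperm 0.334%, ribosomal protein 19.96%, collagen 0.970% and lysosome genes 1.96%, with a ratio of 0.544. With 10 reads asked in each library, ribosomal protein genes took 19.8%, sarcomere genes 0.878%, and the ratio was 0.462. With nuclear protein-coding genes of at least 100 bases only, a setting chosen after seeing the data, these were 20.3%, 0.909% and 0.450.

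Leaving out a library, with genes at 1 TPM in the other, gave a ratio of 0.495 to 0.513. X-linked genes stood below autosomal ones under each of these settings. The control columns of the knockout table moved no value by more than the SD of the libraries. The count of genes at 1 TPM or more and the median absolute log2 ratio stayed within 1.5 times of the reported values wherever they were computed. Of 240 named genes, 137 moved by over 1.5 times without division by length, 57 of them higher and 80 lower; 16 did with 250 bases taken off, 13 with the longest transcript, 17 without replicate 1 and 8 without replicate 2. Without overlapping genes, the 155 named genes left all stood over 1.5 times higher, the levels there being scaled to the same total over fewer genes. No paired analysis was possible because only 1 group was described. Levels below about 1 TPM rest on few reads, and 2 libraries give a rough SD.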
